A study of Mus musculus with 133 samples.

Results

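Hepatocytes of young mice were compared between 96 h and 52 h after partial hepatectomy (PH), the surgical removal of most of the liver, with 12 of the 133 libraries of the series and all genes of the table. The members were every library with the prefix YF or YM at these times, 3 per prefix and time, and no library among them was marked X. YF marks females and YM marks males of 11 to 14 weeks, and all were wild-type C57BL/6 mice. Hepatocytes were isolated by collagenase perfusion and low-speed centrifugation, and their RNA was counted by 3′UTR-seq, a bulk form of CEL-seq2 that counts the 3′ end of each transcript with unique molecular identifiers (UMIs). Mice of the same ages and prefixes that had sham surgery, in which the abdomen was opened and closed, gave 12 further libraries at the same times, after 4 libraries marked X had been left out. The late time is labelled 4 days, which is 96 h. The labels do not say that replicates came from separate animals, and while the study states separate mice for the YM livers, for YF and for sham surgery this is not given in the sources used here. The p-values then measure only the spread between these libraries, which may be technical. Total counts were between 717768 and 2635853 in the PH libraries and between 465547 and 2517176 in the sham libraries.

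After PH, the remaining hepatocytes leave quiescence, replicate their DNA and divide, and this is how the mouse liver regains its mass. Enzymes and licensing factors of DNA synthesis are transcribed first, under E2F transcription factors, and the genes of G2 and mitosis follow later, under the DREAM and MMB-FOXM1 complexes. Dividing hepatocytes go on making plasma proteins and metabolic enzymes, and the liver also answers surgery with acute phase proteins.

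The libraries carried their labels' sex and tissue. Xist was between 132 and 899 CPM (counts scaled to library size, with TMM factors) in the YF libraries after PH and at most 27.9 CPM in the YM libraries, where only replicate 1 at 96 h was above 2.59 CPM. Ddx3y, a Y-linked gene, was at most 1.29 CPM in the YF libraries after PH and at least 82.3 CPM in the YM libraries. Of the 10 hepatocyte markers, led by Alb, none changed between the times, and their summed level was between 21730 and 33110 CPM at 52 h and between 22400 and 31830 CPM at 96 h. Neutrophil markers (9 genes) were not in the table, and Krt19, Krt7 and Epcam, which mark bile duct cells, were not in it either. In bulk RNA, fewer cells of a type and less RNA per cell cannot be told apart. The labels also give each library a mix number, and the 3 mixes of the PH libraries at 52 h and the 4 mixes of those at 96 h had no mix in common, so that mix and time cannot be told apart within the PH libraries. Of the 12 sham libraries, 11 shared a mix with a PH library.

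A gene was called changed at an adjusted p under 0.1 in edgeR's quasi-likelihood test, with the prefix as a blocking factor, and at least a 2-fold change. Of 11045 genes tested, 347 were higher at 96 h than at 52 h (3.14%) and 421 were lower (3.81%), and the median log2 fold change of all genes was 0.01. A fit with mix as a covariate, which compares the PH times only through sham libraries of the same mixes, called 14 genes higher and 7 lower. The only link there between mixes of 52 h and of 96 h was YM sham replicate 3 at 52 h, in mix 21. The PH values of that fit therefore rest on that library. Within YF, 451 genes were higher (4.08%) and 415 lower (3.76%), and DESeq2 called 509 in all. Within YM, 434 were higher (3.93%) and 596 lower (5.4%). In the sham libraries the same interval gave 26 higher (0.235%) and 30 lower genes (0.272%) of 11047, a count that varied with single libraries: without YF replicate 1 at 52 h it was 37 in all, without YF replicate 1 at 96 h it was 34, and without YM replicate 3 at 52 h it was 25. The change after PH differed from the change after sham surgery, by the test of that difference, for 290 genes in the higher direction (2.63%) and 177 in the lower direction (1.6%). These comparisons share libraries, and their values are given side by side.

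**Figure D1:**
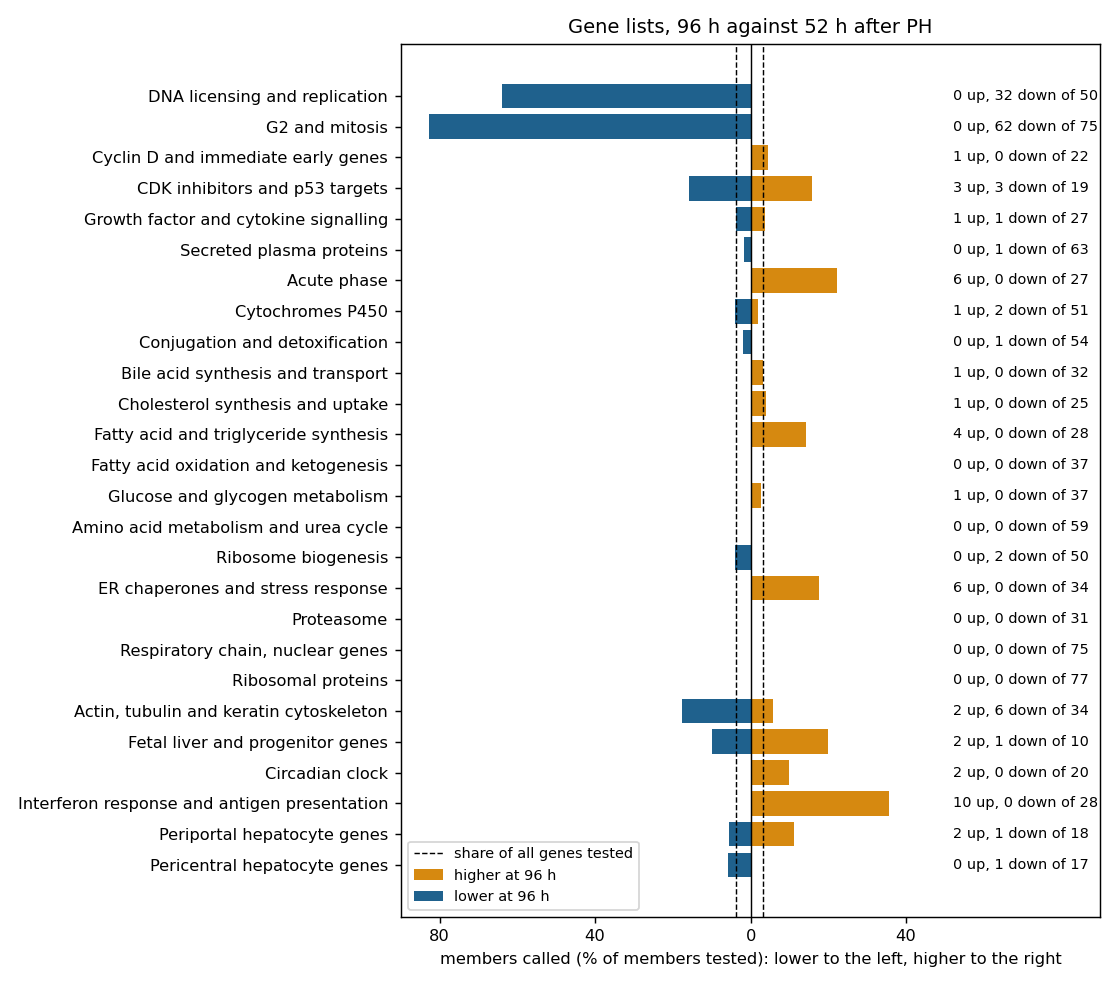
Share of the tested members of each gene list (%, horizontal axis) that were called higher (to the right) or lower (to the left) at 96 h than at 52 h after PH in the 12 libraries, with dashed lines at the share among all genes tested. The bars to the left are longest for G2 and mitosis (62 of 75 members) and for DNA licensing and replication (32 of 50), and the longest bars to the right among lists of over 20 tested genes belong to the interferon response (10 of 28) and the acute phase (6 of 27).

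Genes of G2 and mitosis fell between 52 h and 96 h. Of 83 listed genes, 75 were in the table and tested, and 62 of these were called lower and none higher, against 3.81% called lower among all genes. Their median log2 fold change was −1.88. With mix as a covariate edgeR called none of the 75, 14 were lower at an unadjusted p under 0.05, and the median was −2.21. Their summed level was between 2081 and 5923 CPM over the 6 libraries at 52 h and between 1028 and 2341 CPM at 96 h. For 26 of the 75, the 6 libraries at 96 h were all below the 6 at 52 h, against 2.72% of all genes tested. In the sham libraries the sum was between 369.2 and 800.4 CPM.

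Knl1, the kinetochore scaffold that recruits the spindle checkpoint, had 51.3, 18.2 and 38.0 CPM in YF at 52 h and 9.73, 6.38 and 0 CPM at 96 h. In YM it had 226, 147 and 210 CPM at 52 h and 15.4, 11.7 and 16.1 CPM at 96 h. The groups did not overlap, and the fall was 9.93-fold (log2 fold change −3.31 ± 0.31 SE, adjusted p = 8.84e-06 in edgeR's quasi-likelihood test). With mix as a covariate its value was 1.41 (adjusted p = 1, edgeR). Mki67, which encodes the proliferation marker Ki-67 that coats mitotic chromosomes, had 59.8, 33.5 and 52.2 CPM in YF and 107, 98.7 and 123 CPM in YM at 52 h. At 96 h it had 32.9, 8.38 and 19.6 CPM in YF and 22.8, 12.3 and 17.3 CPM in YM. Every library at 96 h was below every library at 52 h, and the fall was 4.00-fold (−2.00 ± 0.30, adjusted p = 0.000292 by the same test).

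Ube2c, the ubiquitin-conjugating enzyme of the anaphase-promoting complex, had 141, 61.5 and 11.6 CPM in YF at 52 h and 10.1, 1.59 and 1.96 CPM at 96 h. The YM libraries had 15.7, 32.9 and 46.6 CPM at 52 h and 2.79, 1.23 and 2.41 CPM at 96 h. It fell 14.05-fold (log2 −3.81 ± 0.56, adjusted p = 0.000289, edgeR). Cdc20, the activator of the same complex, fell 6.32-fold (−2.66 ± 0.45, adjusted p = 0.000751, edgeR) without overlap of the groups. Kif11, a kinesin that pushes spindle poles apart, fell by 2.77 on the log2 scale, Cenph of the inner kinetochore by 3.44 and Foxm1, the transcription factor that drives late cell cycle genes, by 2.75. All 3 passed the test, with adjusted p-values of 3.41e-05, 5.81e-05 and 0.000209 in edgeR's quasi-likelihood test. Among genes outside the list with the lowest fold changes and no overlap, Cdca2, which binds a mitotic phosphatase, fell by 2.97 and Bard1, the partner of BRCA1 in DNA repair, by 3.67.

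Promoter sequences are shown for genes of the list because its members moved together. RefSeq promoters of GRCm38.p6 were matched for 7894 tested genes and for 60 members of the list, and the 250 bases before the start were searched on both strands. The cell cycle homology region (CHR, letters TTTGAA) was found in 41.7% of the 60 members and in 13.3% of all 7894 genes. The CCAAT box (letters CCAAT) was found in 68.3% of the members and in 41.0% of all genes, and both motifs together in 35.0% and 5.03%. The 100 bases before the start are printed for 4 members that hold both motifs, Kif11 at chr19:37376282-37376381 (plus strand), Top2a at chr11:99024190-99024289 (minus strand), Cdk1 at chr10:69352913-69353012 (minus strand) and Cdc20 at chr4:118437344-118437443 (minus strand). Capitals mark TTTGAA or its reverse complement TTCAAA, and CCAAT or its reverse complement ATTGG. A match is a description of letters, not a bound site.
Kif11: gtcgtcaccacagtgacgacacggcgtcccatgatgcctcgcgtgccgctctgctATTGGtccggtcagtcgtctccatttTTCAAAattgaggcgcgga
Top2a: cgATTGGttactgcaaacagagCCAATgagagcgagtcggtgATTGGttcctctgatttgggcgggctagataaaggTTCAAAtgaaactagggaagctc
Cdk1: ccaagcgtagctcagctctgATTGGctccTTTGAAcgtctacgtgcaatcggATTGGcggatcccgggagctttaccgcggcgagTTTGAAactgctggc
Cdc20: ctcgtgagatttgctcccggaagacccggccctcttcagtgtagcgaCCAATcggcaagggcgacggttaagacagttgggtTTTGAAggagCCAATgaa

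The fall of mitotic genes was not the same in YF and YM. In YF, 38 of the 75 members were called lower and 2 higher, with a median log2 fold change of −1.21, and in YM 64 were called lower and none higher, with a median of −2.61. Of the members called lower in YM, 33 were also called lower in YF. The test of the difference itself, the time by sex term, called 237 of all genes more negative in YM (2.15%) and 122 more positive (1.1%), and it called 27 of the 75 members, all more negative in YM. This count was 14 without YF replicate 1 at 96 h, 15 without YM replicate 1 at 96 h, 16 without YM replicate 1 or without YF replicate 3 at 52 h, and 17 without YF replicate 3 at 96 h. Over all genes the term called 152 genes without YM replicate 1 at 96 h, 153 without YF replicate 3 at 52 h, 177 without YF replicate 3 at 96 h and 224 without YM replicate 1 at 52 h, and DESeq2 called 164 with all libraries.

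Cdk1, the kinase that drives entry into mitosis, had 77.7, 44.7 and 77.3 CPM in YF at 52 h and 137, 45.1 and 101 CPM at 96 h, so that the YF groups overlapped. Its YM levels were 274, 212 and 330 CPM at 52 h and 30.2, 35.0 and 28.9 CPM at 96 h. The YM fall was 8.84-fold (log2 −3.14, adjusted p = 1.44e-05, edgeR), the YF value was 0.44 (adjusted p = 0.379), and the difference between them was −3.59 ± 0.45 (adjusted p = 0.000794, edgeR). Cdk1 passed the test over both sexes together at −1.34 ± 0.53 (adjusted p = 0.0897), and this call was lost in 7 of the 12 fits that left out a library. Plk1, the polo-like kinase of the mitotic spindle, had 502, 198 and 412 CPM in YF at 52 h and 318, 158 and 284 CPM at 96 h. YM libraries had 1591, 1006 and 1306 CPM at 52 h and 143, 172 and 133 CPM at 96 h, which was 8.94-fold lower and without overlap. The sex difference of its change was −2.58 ± 0.42 (adjusted p = 0.00665, edgeR). Over both sexes Plk1 fell by 1.87 (adjusted p = 0.00505), and with mix as a covariate its value was 2.12 (adjusted p = 1, edgeR). The sham library that links the times in that fit had no Plk1 count, so that this value depends on the prior count and is no bound.

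Ect2, which activates RhoA for cytokinesis, and Ckap2, a microtubule-binding protein of the spindle, were the pair of members called higher in YF, at 1.04 and 1.35 on the log2 scale, and both fell in YM, by 1.97 and 1.62. Spc25 of the outer kinetochore had the lowest adjusted p of the sex term in the list (3.56e-05), with −0.30 in YF and −2.82 in YM. Top2a, the topoisomerase that untangles chromosomes, fell over both sexes by 1.62 ± 0.29 (adjusted p = 0.00128, edgeR), and its change was more negative in YM by 1.79 (adjusted p = 0.0227). Birc5, which encodes survivin of the chromosomal passenger complex, fell over both sexes by 1.48 (adjusted p = 0.0137), and its sex difference was −2.45 (adjusted p = 0.0246).

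Genes outside the lists with the lowest p of the sex term moved in opposite directions in the 2 sexes or in YM alone. Kifc1, a minus-end kinesin that focuses spindle poles, had 31.5, 18.2 and 29.6 CPM in YF at 52 h and 125, 59.4 and 74.4 CPM at 96 h, and in YM 39.2, 26.7 and 29.8 CPM at 52 h and 0.466, 0 and 0.402 CPM at 96 h. Its near-identical copy Kifc5b could share its reads, so that its level is uncertain. Ddias, a gene of the response to DNA damage, had 12.7, 8.39 and 10.3 CPM in YF at 52 h and 40.4, 29.9 and 42.1 CPM at 96 h. In YM it had 47.8, 46.8 and 46.6 CPM at 52 h and 9.31, 7.99 and 16.9 CPM at 96 h, and neither pair of groups overlapped. Sgo2a, which protects centromeric cohesion, had 21.7, 11.2 and 19.3 CPM in YF at 52 h and 24.3, 22.7 and 20.6 CPM at 96 h, against 89.4, 71.6 and 63.4 CPM and then 6.98, 4.30 and 6.03 CPM in YM.

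The YF and YM libraries at 96 h came from different mixes, and at 52 h mix 18 held both, with YF replicate 3 and YM replicates 2 and 3. Within mix 18, Cdk1 had 77.3 CPM in the YF library and 212 and 330 CPM in the YM libraries, and Plk1 had 412 CPM against 1006 and 1306 CPM. Of the 75 mitotic members, 26 were at 0 in every library of at least 1 mix and had values only on the scale of the UMI correction, with no sign of the authors' batch correction. All 26 were among the members called lower over both sexes. Their median log2 fold change was −2.66 in YF and −2.96 in YM, and 2 of them were called for the sex term. For the other 49 the medians were −0.60 in YF and −2.47 in YM, 36 were called lower, and 25 were called for the sex term. The part of the batch correction in the sex difference was not tested.

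**Figure D2:**
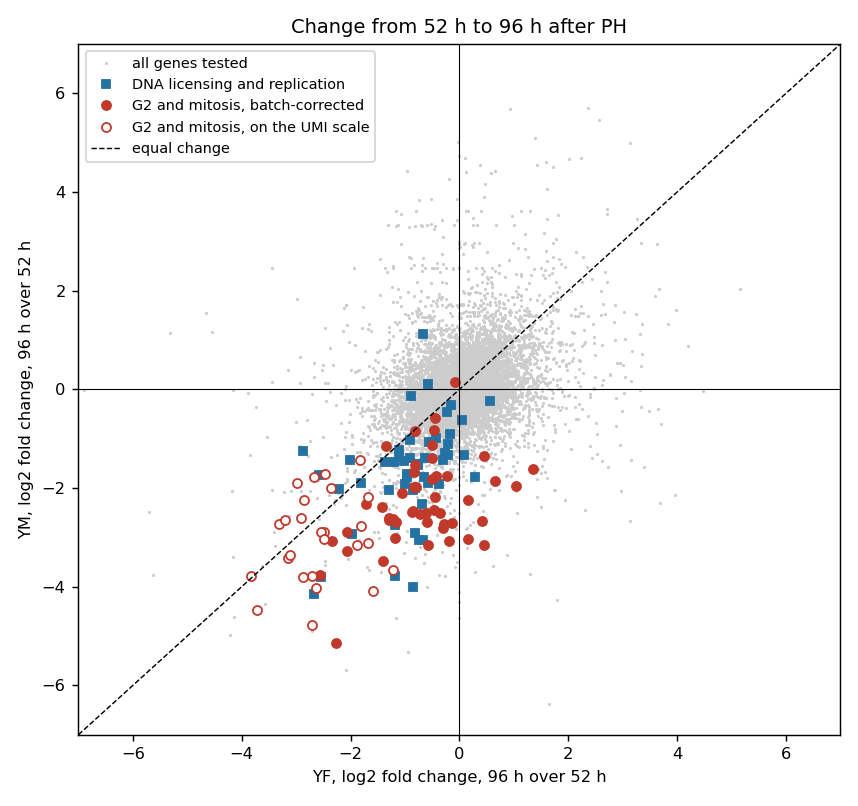
Log2 fold change from 52 h to 96 h after PH in YF (horizontal axis) against that in YM (vertical axis), with all tested genes in grey, replication genes as squares and mitotic genes as circles, filled where the values were batch-corrected and open where they were on the UMI scale; the dashed line marks equal change. Most filled circles lie below the line, with medians of −0.60 in YF and −2.47 in YM, and the open circles lie nearer to it, with medians of −2.66 and −2.96.

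At 96 h mitotic genes were still above the level of sham surgery. PH was called higher than sham for 74 of the 75 members at 52 h, against 4.42% of all genes called higher and 3.12% called lower, and for 47 at 96 h, against 3.24% called higher and 1.24% called lower. Counted within each sex, PH was called higher than sham at 52 h for 69 members in YF, against 3.32% of all genes, and for 71 in YM, against 5.78%. At 96 h the counts were 33 in YF, against 2.95% of all genes, and 28 in YM, against 2.77%. The difference between the PH and sham changes was called lower for 18 of the 75 members, against 1.6% of all genes, and higher for none. That count was 8 with mix as a covariate and 28 with the X-marked sham libraries included. Plk1, which the sham comparison called higher at 96 h, was at 0 in all 3 YM sham libraries at 52 h, so that no fold is given for it. Mki67 was 1.30, 2.88 and 3.39 CPM in the YM sham libraries at 52 h and 0, 0.903 and 2.36 CPM at 96 h, below each of the YM libraries after PH.

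Genes of DNA licensing and replication also fell. Of 66 listed genes, 50 were in the table and tested, 32 were called lower, against 3.81% of all genes, and none higher, and the median log2 fold change was −1.24. The fit with mix as a covariate called 1 lower, with a median of −1.59. Their summed level was between 1033 and 1426 CPM at 52 h and between 452.1 and 796.9 CPM at 96 h, and no library overlapped between the times. The YF libraries at 96 h, from 710.3 to 796.9 CPM, were all above the YF sham libraries, from 529.3 to 709.9 CPM. The YM libraries at 96 h, from 452.1 to 533.9 CPM, lay within the range of the YM sham libraries, from 439.8 to 575.6 CPM. None of the 50 was called between the sham times. PH was called higher than sham at 52 h for 37 of the 50, against 4.42% of all genes, and lower for 1, against 3.12%. At 96 h it was called higher for 6, against 3.24% of all genes. The PH change was called lower than the sham change for 16, against 1.6%, and for 8 with mix as a covariate.

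Tk1, the thymidine kinase of the salvage pathway, had 44.7, 36.3 and 52.9 CPM in YF at 52 h and 13.8, 10.4 and 9.78 CPM at 96 h. The YM libraries had 35.3, 44.9 and 31.0 CPM at 52 h and 5.59, 4.30 and 5.22 CPM at 96 h. It fell 5.19-fold without overlap (log2 −2.38 ± 0.19, adjusted p = 1.91e-06, edgeR), and the fall exceeded that in the sham libraries by 2.18 (adjusted p = 0.000138). At 96 h Tk1 was below sham by the test at a log2 difference of −0.74 (adjusted p = 0.048), which is less than 2-fold. Tyms, which makes thymidylate, fell by 1.84 on the log2 scale, Mcm7 of the replicative helicase by 1.36 ± 0.17 (adjusted p = 6.22e-05, edgeR), and E2f2, a transcription factor of S phase genes, by 1.75.

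Rrm2, the regulated subunit of ribonucleotide reductase, fell by 1.90, from 18.8, 34.9 and 34.2 CPM to 16.1, 16.8 and 21.5 CPM in YF and from 96.4, 75.1 and 66.0 CPM to 10.2, 6.76 and 11.7 CPM in YM. Its sex difference was −2.38 (adjusted p = 0.00415, edgeR). Of the 50 members, 10 were called for this term, all more negative in YM, against 2.15% of all genes. That count was 5 without YM replicate 1 at 96 h and 6 without YF replicate 1 at 52 h. Pcna, the sliding clamp, was lower by 0.75 on the log2 scale over both sexes (adjusted p = 0.0125), less than 2-fold, and its sex difference was −1.11 (adjusted p = 0.049). E2f1 fell by 1.17 (adjusted p = 0.00262), with a sex difference of −1.31 (adjusted p = 0.0705). Ccne1, the cyclin of the entry into S phase, was between 0.399 and 5.59 CPM in the 12 libraries, and its log2 fold change was −0.46 (adjusted p = 0.551). Letters of an E2F site (TTTCGCGC, TTTGGCGC or TTTCCCGC, both strands) were found in the promoters of 28.2% of 39 matched members and of 3.56% of all 7894 genes.

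**Figure D3:**
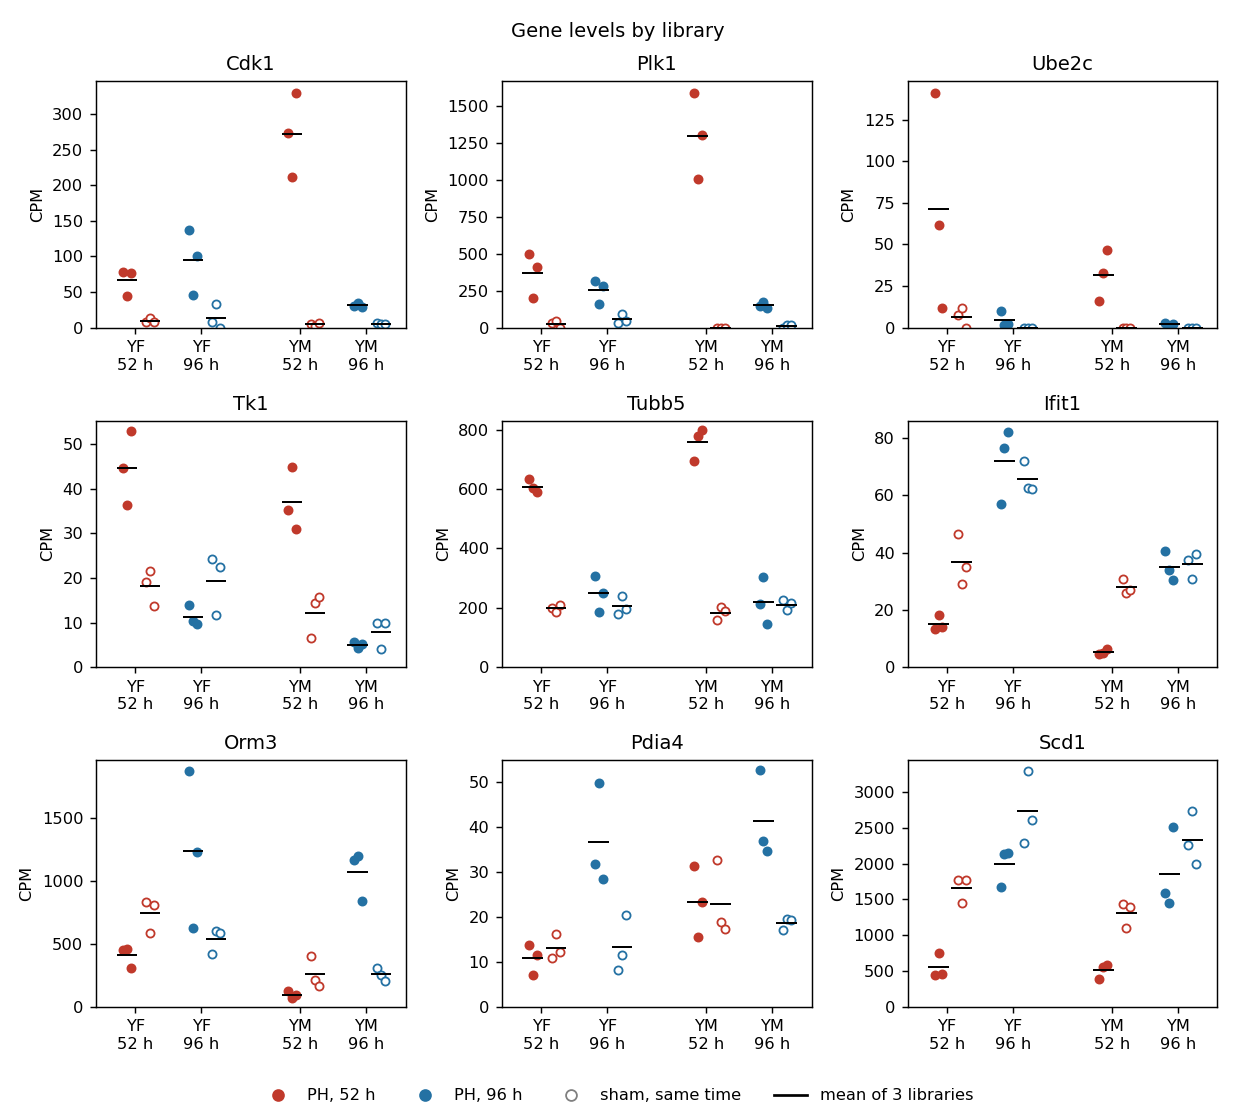
CPM of 9 genes in each library (vertical axes, linear) by prefix and time, with filled points for PH, open points for sham surgery and bars at the group means. Ube2c, Tk1 and Tubb5 fell in both sexes, Cdk1 fell in YM only by the tests within each sex, Plk1 in YM was between 133 and 172 CPM at 96 h after PH, and Ifit1, Orm3 and Scd1 were higher at 96 h in every PH library.

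Other cell cycle regulators moved less as groups. Of 22 genes of the cyclin D and immediate early list, 1 was called, against 3.14% of all genes called higher. This was Fosl2, an AP-1 subunit, which rose by 1.5 (adjusted p = 0.00218, edgeR). Of 19 CDK inhibitors and p53 targets, 3 rose, against 3.14% of all genes, and 3 fell, against 3.81%. Gdf15, a stress cytokine, rose by 1.13, Bbc3, which encodes the apoptosis protein PUMA, by 1.06, and Cdkn1c, the CDK inhibitor p57, by 1.83. Cdkn2d, the CDK4 inhibitor p19, fell by 1.31, and Rbl1, which encodes the pocket protein p107, fell by 1.39 (adjusted p = 0.00553), with a sex difference of −1.67 (adjusted p = 0.0896). Gtse1, a microtubule-bound regulator of p53, fell by 1.99. Of 27 growth factor and cytokine genes, 1 was called higher, against 3.14% of all genes, and 1 lower, against 3.81%. Inhbe, a hepatic activin subunit, rose by 1.96. Tnfrsf12a, the TWEAK receptor, fell by 1.02 (adjusted p = 0.0634), a call that was lost in 5 of the 12 fits that left out a library.

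Most genes of the cytoskeleton list did not pass the test. Of 34 genes, 6 were called lower, against 3.81% of all genes, and 2 higher, against 3.14%, and the median log2 fold change of the list was −0.03. Tubb5, the main beta tubulin of dividing cells, had 633, 602 and 588 CPM in YF at 52 h and 308, 187 and 250 CPM at 96 h. Its YM levels were 695, 780 and 798 CPM at 52 h and 211, 302 and 146 CPM at 96 h. It fell 2.95-fold without overlap (log2 −1.56 ± 0.17, adjusted p = 2.57e-05, edgeR), against 0.12 in the sham libraries (adjusted p = 0.791), and in the sham libraries at 96 h it had 178, 239 and 197 CPM in YF and 226, 191 and 216 CPM in YM. The related genes Tuba1b, Tubb6, Tubb2a and Tubb4b also fell, with log2 fold changes of −1.42 for Tuba1b and −1.70 for Tubb6, as did Pfn1, an actin-binding protein, at −1.36. Tubulin genes are close in sequence and could share reads. Lgals3 and S100a6, which bind galactosides and calcium, rose by 1.1 and 1.62.

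Several interferon response genes rose between 52 h and 96 h. Of 28 genes tested, 10 were called higher and none lower, and the median log2 fold change was 0.89, against 3.14% of all genes called higher and a median of 0.01. When mix was a covariate 2 were called higher, and the median was 0.93. The summed level was between 2093 and 2812 CPM at 52 h and between 3008 and 3498 CPM at 96 h, with no overlap, and between 2965 and 4091 CPM in the sham libraries. Within each sex the PH libraries at 96 h lay below the sham libraries of that time. The sums were 3289 to 3473 against 3486 to 4023 CPM in YF and 3008 to 3498 against 3565 to 4091 CPM in YM. At 52 h PH was called lower than sham for 4 members, against 3.12% of all genes, and higher for none. At 96 h it was called higher for 1, against 3.24%, and lower for none. None was called between the sham times (median 0.29), and 4 rose more after PH than after sham surgery, against 2.63% of all genes.

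Ifit1, which binds foreign RNA, had 13.2, 18.2 and 14.2 CPM in YF at 52 h and 56.9, 76.6 and 82.2 CPM at 96 h. YM libraries had 4.70, 5.03 and 6.47 CPM at 52 h and 40.5, 33.8 and 30.5 CPM at 96 h. It rose 5.40-fold (log2 2.43 ± 0.17, adjusted p = 4.56e-07, edgeR), and by 1.89 more than in the sham libraries (adjusted p = 1.91e-05). Against sham it was lower by 1.86 at 52 h (adjusted p = 2.83e-08), and at 96 h the log2 difference was 0.03 (adjusted p = 0.983). Irf1, a transcription factor of this response, rose by 1.27 (adjusted p = 5.96e-05), and Rsad2, the antiviral enzyme viperin, rose by 1.80 (adjusted p = 0.000146), more in YM by 1.42 (adjusted p = 0.0833). Irf7 rose by 1.66, Ifit3 by 1.75, Ifi27 by 1.03, Isg15 by 1.04 and Gbp3 by 1.43. Oasl2 and Ifi44 completed the 10. Antigen presentation genes were not called, since H2-K1, at 0.51, and B2m, at 0.40, were under 2-fold with adjusted p-values of 0.00592 and 0.0129.

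Letters of an interferon regulatory factor site (GAAANNGAA, both strands) were found in the promoters of 52.0% of 25 matched members and of 7.58% of all 7894 genes. They can overlap the letters of a CHR. The windows of Ifit1 and of Gbp7, a guanylate-binding GTPase, are printed as examples that hold them within 100 bases of the start, Ifit1 at chr19:34640789-34640888 (plus strand) and Gbp7 at chr3:142530236-142530335 (plus strand), with the match in capitals on either strand. Gbp7 itself was higher by 0.84 (adjusted p = 0.000217), under 2-fold.
Ifit1: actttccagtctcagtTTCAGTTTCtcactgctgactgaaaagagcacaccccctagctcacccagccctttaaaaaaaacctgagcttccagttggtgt
Gbp7: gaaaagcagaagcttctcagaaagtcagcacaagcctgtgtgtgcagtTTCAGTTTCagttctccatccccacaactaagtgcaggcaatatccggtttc

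Macrophage markers moved in the same direction as the interferon genes. Of 14 markers, all in the table, 2 were called higher, against 3.14% of all genes, with a median log2 fold change of 0.73. The sum of the 14 was between 509.6 and 936.4 CPM at 52 h and between 824.3 and 1766 CPM at 96 h. Clec4f, a lectin of Kupffer cells, rose from 128, 148 and 116 CPM to 384, 286 and 296 CPM in YF and from 59.6, 52.2 and 67.2 CPM to 122, 135 and 143 CPM in YM (log2 1.23 ± 0.11, adjusted p = 8.39e-06, edgeR). Fcer1g, an adaptor of immune receptors, rose by 1.09. In the sham libraries none of the 14 was called and their median was 0.02. The PH change was called higher than the sham change for 1, against 2.63% of all genes. Of 14 sinusoidal endothelial and 12 stellate cell markers none was called, with medians of 0.36 and 0.33. Haemoglobin genes rose as well, 4 of 5 erythroid markers, against 3.14% of all genes. The sum of the list was between 23.07 and 56.88 CPM at 52 h and between 55.83 and 110.0 CPM at 96 h. Within YF 3 were called higher, within YM 1, and for 1 PH exceeded the sham change, against 4.08%, 3.93% and 2.63% of all genes. In YF sham libraries the sum was 16.66 to 37.75 CPM at 52 h and 66.3 to 129.9 CPM at 96 h. In YM sham libraries it was 96.4 to 110.5 CPM and then 74.4 to 94.77 CPM. The part of these cell types in the rise of the interferon and acute phase genes was not tested.

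**Figure D4:**
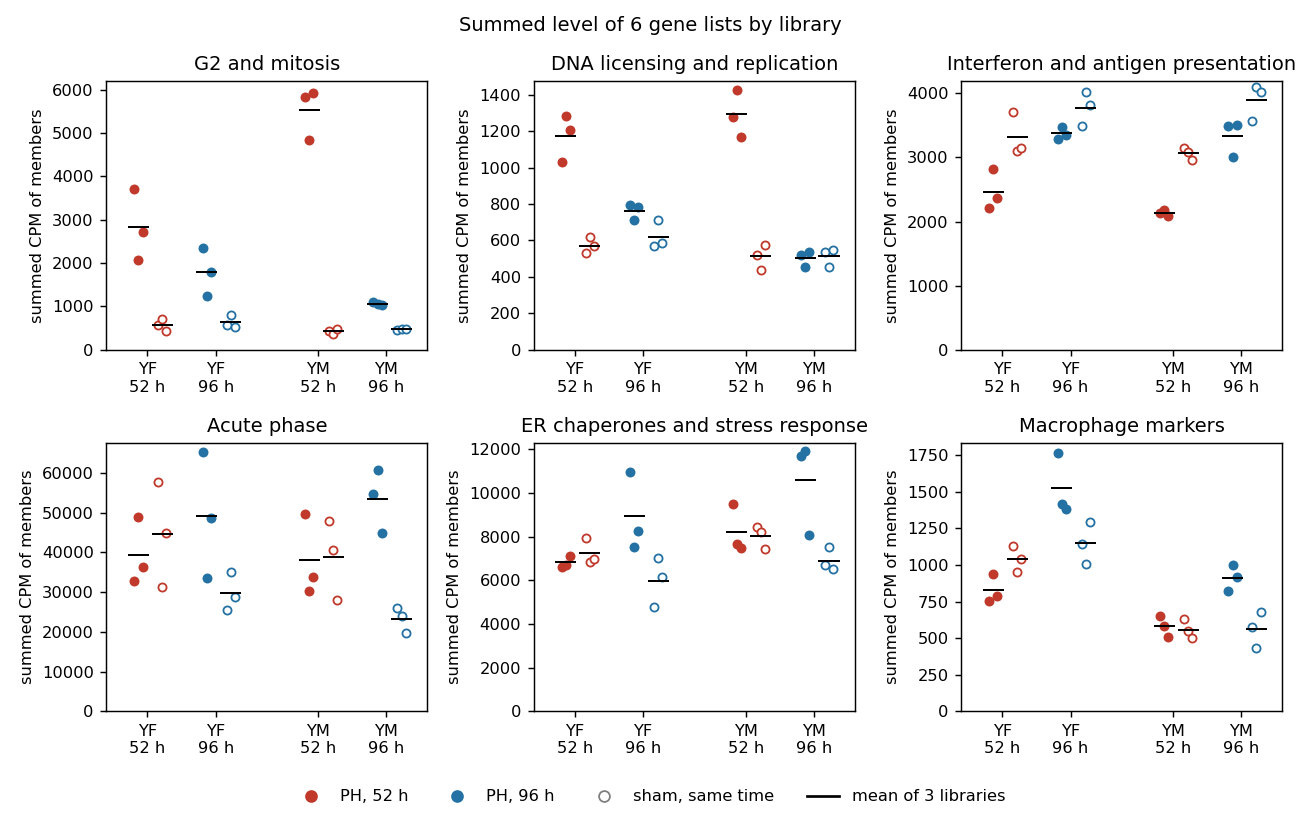
Summed CPM of the members of 6 lists in each library (vertical axes) by prefix and time, with filled points for PH and open points for sham surgery. The mitotic sum after PH at 96 h (1028 to 2341 CPM) lay above the sham range of 369.2 to 800.4 CPM. In YF the interferon sum at 96 h was 3289 to 3473 CPM after PH and 3486 to 4023 CPM after sham surgery. In YM it was 3008 to 3498 CPM and 3565 to 4091 CPM, so that PH lay below sham in each sex at that time.

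Some acute phase genes rose after PH, and some fell after sham surgery. Of 27 genes tested, 6 were called higher after PH, against 3.14% of all genes, and none lower (median 0.50). With mix as a covariate 1 was called higher, and the median was 0.88. After sham surgery 5 were called lower, against 0.272% of all genes, and none higher (median −0.58). The difference of the changes was called higher for 11, against 2.63%, and lower for none, with a median of 0.97. PH was called higher than sham for 12 of the 27 at 96 h, against 3.24%, and at 52 h for none, with 3 lower, against 3.12%. The summed level of the list overlapped between the times, with a median of 35180 CPM at 52 h, over a range of 30350 to 49610, and of 51700 CPM at 96 h, over a range of 33550 to 65280.

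Orm3, an orosomucoid of the acute phase, had 454, 457 and 309 CPM in YF at 52 h and 1867, 622 and 1228 CPM at 96 h. In YM it had 122, 70.0 and 94.4 CPM at 52 h and 1165, 1194 and 841 CPM at 96 h. It rose 5.61-fold without overlap (log2 2.49 ± 0.34, adjusted p = 0.000157, edgeR), more in YM by 1.86 (adjusted p = 0.049) and more than after sham surgery by 2.80. Saa2, a serum amyloid A protein, rose by 1.29 (adjusted p = 0.00238) and fell after sham surgery by 1.93, so that the changes differed by 3.24 (adjusted p = 0.00065). Saa4 rose by 1.40, Socs3, a feedback inhibitor of IL-6 signalling, by 1.42, Cd14, a lipopolysaccharide receptor, by 2.29 and Cebpd by 1.08. Cebpd, a transcription factor, rose in YF by 2.12 and was −0.35 in YM (sex difference −2.47, adjusted p = 0.0705). Hp, which encodes haptoglobin, was 0.31 after PH (adjusted p = 0.272). Orosomucoid and serum amyloid genes have near-identical copies, so that their reads could be split between them.

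Some genes of the endoplasmic reticulum stress response rose. Of 34 tested, 6 were called higher, against 3.14% of all genes, and none lower (median 0.43). With mix as a covariate edgeR called none, 4 were higher and 1 lower at an unadjusted p under 0.05, and the median was 0.67. After sham surgery 1 was called lower, against 0.272%, and none higher (median −0.40). The difference of the changes was called higher for 10, against 2.63%, and for 6 with mix as a covariate. The count of 6 was 3 without YM replicate 1 at 96 h, and it was 4 without YF replicate 1 or without YM replicate 3, at 96 h and 52 h. The count of 10 was 5 without the YF sham replicate 1 at 96 h, and it was 6 without YM replicate 3 at 52 h, without YM replicate 2 at 96 h, without YF sham replicate 1 at 52 h, or without YM sham replicate 2 at 52 h. Pdia4, a disulfide isomerase, had 13.7, 6.99 and 11.6 CPM in YF at 52 h and 31.8, 49.9 and 28.4 CPM at 96 h. The YM libraries had 31.4, 15.5 and 23.3 CPM at 52 h and 52.6, 36.9 and 34.5 CPM at 96 h, above all of the 52 h libraries of that sex. It rose 2.33-fold (log2 1.22 ± 0.23, adjusted p = 0.00188, edgeR). Chac1, which degrades glutathione, rose by 1.72, Sdf2l1 by 1.06, Creld2 by 1.04, Hspa1a, an inducible heat shock protein, by 1.51, and Trib3, a pseudokinase induced by stress, by 1.43. Atf5 and Sel1l, at 0.94 and 0.83, had adjusted p-values of 0.000157 and 0.00405 but were under 2-fold. The CCAAT box was found in 27 of 30 matched promoters of the list, and in 41.0% of all 7894 genes.

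A few genes of lipid synthesis rose. Of 28 genes of fatty acid and triglyceride synthesis, 4 were called higher, against 3.14% of all genes, and none lower, and the median log2 fold change was 0.22. At 52 h PH was called lower than sham for 6, against 3.12%. At 96 h it was called lower for 2, against 1.24%, and higher for 1, against 3.24%. Scd1, the desaturase that makes oleate, had 445, 749 and 461 CPM in YF at 52 h and 1671, 2140 and 2154 CPM at 96 h. Its YM levels were 383, 557 and 579 CPM at 52 h and 1589, 1444 and 2513 CPM at 96 h. It rose 3.58-fold without overlap (log2 1.84 ± 0.17, adjusted p = 8.84e-06, edgeR). After sham surgery the log2 difference was 0.78, under 2-fold, and the changes differed by 1.09 (adjusted p = 0.00447). Against sham it was lower by 1.48 at 52 h (adjusted p = 4.23e-07), and at 96 h the difference was −0.40 (adjusted p = 0.117). Acacb, a carboxylase that makes malonyl-CoA, rose by 1.63. Thrsp, a regulator of lipogenesis, rose by 1.31, with a sex difference of 1.70 (adjusted p = 0.0221), and at 96 h it was still below sham by 1.71 on the log2 scale (adjusted p = 8.41e-06). Lpin1, a phosphatidate phosphatase, rose by 1.36 after PH and by 1.40 after sham surgery. In the cholesterol list of 25 genes, 1 was called higher, against 3.14% of all genes, and the list median was 0.46. This was Sqle, a rate-limiting enzyme, which rose by 1.05, a call that was lost in 4 of the 12 fits that left out a library.

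Most other metabolic genes did not pass the test. Among all genes, 3.14% were called higher and 3.81% lower. None of 59 genes of amino acid metabolism and the urea cycle was called (median 0.19), none of 37 of fatty acid oxidation and ketogenesis (median 0.16), and of 63 plasma protein genes only Apoa4. Apoa4, an apolipoprotein of triglyceride-rich particles, had 676, 704 and 723 CPM in YF at 52 h and 304, 367 and 226 CPM at 96 h, and 912, 1082 and 961 CPM and then 199, 224 and 174 CPM in YM. It fell 3.45-fold without overlap (log2 −1.79 ± 0.19, adjusted p = 2.04e-05, edgeR), more in YM by 1.12 (adjusted p = 0.0307), and it was lower after sham surgery by 0.95 (adjusted p = 0.00554). Of 32 bile acid genes, 1 was called, against 3.14% of all genes called higher: Cyp8b1, the enzyme of cholic acid synthesis, rose by 1.03. Of 37 genes of glucose metabolism, 1 was called, against the same share: Pklr, the liver pyruvate kinase, rose by 1.40. Of 51 cytochromes P450, Cyp4b1 rose by 1.41, against 3.14% of all genes, and Cyp4a14 and Cyp3a41b fell by 1.39 and 1.26, against 3.81%. Of 54 conjugation genes, only Ugt2b38 was called, at a fall of 1.13, against 3.81% of all genes called lower. Proteasome (31), respiratory chain (75) and ribosomal protein genes (77) had none called at an adjusted p under 0.1 with 2-fold change, and their medians were −0.04, 0.02 and −0.16. Of 50 ribosome biogenesis genes, Gnl2 and Utp15 fell, by 1.06 and 1.04, against 3.81% of all genes called lower.

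Zonation and fetal genes gave a few calls. Pigr, the receptor that carries immunoglobulin A into bile, rose by 1.08 ± 0.11 (adjusted p = 2.04e-05, edgeR) and Ctsc, a lysosomal protease, by 1.02, the latter lost in 4 of the 12 fits that left out a library. With Apoa4, which fell, they were the 3 called among 18 periportal genes, against 3.14% of all genes called higher and 3.81% called lower. Of 17 pericentral genes Lgr5, the R-spondin receptor, fell by 1.53, against 3.81% of all genes. Of 10 fetal and progenitor genes, Spp1 and H19 rose, against 3.14% of all genes, and Lgr5 fell, against 3.81%. H19 was near the floor, between 0 and 2.825 CPM at 52 h and between 0 and 7.827 CPM at 96 h, so that its times overlapped. Spp1, which encodes osteopontin and is also made by bile duct cells, had 2.35, 11.2 and 5.80 CPM in YF at 52 h and 6.36, 7.58 and 5.87 CPM at 96 h, against 3.92, 0.774 and 3.88 CPM and then 39.1, 52.2 and 71.9 CPM in YM. The YF groups overlapped, the YM groups did not, and the sex difference was 4.18 (adjusted p = 0.0159, edgeR). Of 22 male-biased liver genes, Selenbp2 rose by 1.27 and Moxd1 by 2.81, against 3.14% of all genes, and Ugt2b38 fell, against 3.81%. Of 23 female-biased genes Cyp3a41b fell, against 3.81% of all genes. Of 3 lymphocyte markers in the table, 1 was called higher, against 3.14% of all genes. This was Ighm, the heavy chain of immunoglobulin M, which rose by 2.23, with 0.93 in YF and 5.69 in YM. Its values were only on the scale of the UMI correction. The summed level of the 3 markers was at most 30.75 CPM at 52 h and 39.77 CPM at 96 h. At levels this low the YM value of Ighm rests on few counts and is no bound.

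The times lay 44 h apart, which is 20 h beyond a whole number of days, so that time after surgery and hour of the day cannot be told apart within PH. Of 20 clock genes, Npas2 and Bhlhe41, transcription factors of the clock, were called higher at 96 h, by 1.5 and 2.07, against 3.14% of all genes. After sham surgery Bhlhe41 rose by 1.71. At 52 h PH was called lower than sham for 8 of the 20, against 3.12% of all genes, and higher for 1, against 4.42%. At 96 h it was called lower for 7, against 1.24%, and higher for 3, against 3.24%.

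Among genes in no list, the largest rise by the naming rule was that of Cxcl14, a chemokine. It had 5.18, 0 and 2.58 CPM in YF at 52 h and 36.7, 27.9 and 35.2 CPM at 96 h. YM libraries had 11.0, 13.5 and 10.3 CPM at 52 h and 124, 136 and 148 CPM at 96 h. It rose 10.56-fold without overlap (log2 3.40 ± 0.20, adjusted p = 9.81e-08, edgeR), and by 3.24 more than after sham surgery (adjusted p = 0.00615). At 96 h the sham libraries had 2.02, 0 and 3.06 CPM in YF and 10.5, 8.12 and 6.6 CPM in YM. Tgtp1, an interferon-induced GTPase with a near-identical copy, rose by 3.01, Phf11d by 2.22, Clec4n, a lectin of myeloid cells, by 2.03 and B3galt1, a galactosyltransferase, by 2.02. Gm16277, a gene model, had 23.5, 74.1 and 72.8 CPM in YF at 52 h and at most 1.12 CPM at 96 h, and in YM it had 11.8, 4.64 and 2.59 CPM at 52 h and at most 2.01 CPM at 96 h.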

How the data were processed

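The authors mapped CEL-seq2 reads to GRCm38 with the celseq2 pipeline, counted UMIs per gene, converted them to expected counts with a binomial correction for 4096 UMIs, removed 9 genes and genes of low expression, and used ComBat-Seq to adjust counts for differences among datasets. The table they deposited has 11049 genes in 133 libraries. Which libraries made up a dataset is not given in the sources used here. bcl2fastq 2.20 is named in the submitters' processing notes. Of 448 genes with values that were not whole, 394 lay entirely on the UMI scale (tolerance 0.01). Expected counts were rounded here. Genes with 0.5 CPM in at least 1 library were kept, scaled by TMM and tested with edgeR 4.0.16 (quasi-likelihood, R 4.3.3) on the 12 PH libraries with prefix as a block (residual df 9), within each prefix and for time by sex from one coefficient per group, and on 24 libraries with the sham groups (df 16). Calls needed a Benjamini-Hochberg adjusted p under 0.1 and a 2-fold change. Fold changes are log2 ± SE.

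Alternatives were DESeq2 1.42.0, RLE scaling, other filters, another threshold, the 24-library fit, the replicate block, mix as a covariate, the X-marked sham libraries and each library left out. Python 3.11.15 with pandas 2.3.3, NumPy 2.4.6 and matplotlib 3.10.9 made tables and plots. Symbols came from GENCODE vM21 (11020 genes). Levels of 3 libraries per group limit the precision, and replicates of a group differed by more than sampling noise (ratio of chi-square to its degrees of freedom, 2.313 to 10.338).

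The libraries, lists and rules were chosen with earlier results of these data known. Named genes were the 8 highest and 8 lowest called genes without overlap at a mean of 10 CPM or more, up to 4 genes of lowest p per process list, the 4 of lowest p for time by sex, the highest marker of each cell type, the 4 clock genes of lowest p after sham surgery, and the cell cycle genes that the study plotted. Other list members were named after their values were seen, to account for each call.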

Additional observations from a re-analysis of the deposited data

Results flagged for a closer look

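The change from 52 h to 96 h after PH differed between YM and YF, by the time by sex term of edgeR's quasi-likelihood test, for 27 of the genes named here, 9 of them named outside the naming rule, each given as the YM minus the YF change on the log2 scale. The change was more negative in YM for members of the G2 and mitosis list, with Cdk1 at −3.59, Ect2 at −3.01, Ckap2 at −2.97, Cenph at −2.86, Plk1 at −2.58, Spc25 at −2.51, Foxm1 at −2.49, Birc5 at −2.45 and Top2a at −1.79. It was also more negative for Kifc1 at −8.02, Sgo2a at −3.99, Ddias at −3.77 and Fam83d at −2.93, which are in no list. The value of Kifc1 depends on the prior count, because its YM libraries at 96 h were near 0, and it is no bound.

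Cebpd differed by −2.47, Rrm2 by −2.38, Ly6d by −2.20, Tnfrsf12a by −2.05, Rbl1 by −1.67, E2f1 by −1.31, Apoa4 by −1.12 and Pcna by −1.11, all more negative in YM. Spp1 at 4.18, Cyp4b1 at 3.69, Ugt2b38 at 2.33, Orm3 at 1.86, Thrsp at 1.70 and Rsad2 at 1.42 were more positive in YM. No mix held PH libraries of both YF and YM at 96 h, so that sex and mix cannot be told apart at that time. In replicate 3 of the YF groups at both times, Xist was 132 and 140 CPM, below the 495 to 899 CPM of replicates 1 and 2, and these libraries came from other mixes than replicates 1 and 2.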

How the results depend on the processing

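RLE scaling, the other filters, the 24-library fit and the replicate block kept each count of calls within 1.5 times its value. Adjusted p under 0.05 with no minimum fold gave 2126 genes after PH, 1329 in YF, 1666 in YM, 161 for time by sex, 91 after sham surgery and 736 for PH minus sham. DESeq2 gave 509 in YF, 164 for time by sex and 31 after sham surgery. With the X-marked sham libraries the sham count was 112. With mix as a covariate (residual df 9), 21 genes were called after PH (14 higher and 7 lower), 2 after sham surgery and 271 for PH minus sham. There the PH times are compared only through sham libraries of the same mixes, and only YM sham replicate 3 at 52 h, in mix 21, links the times. The PH values of that fit therefore rest on that library. In that fit 707 of the 768 called genes kept their direction, 61 turned, and the calls went from 62 to 0 for mitosis, from 32 to 1 for replication, from 10 to 2 for interferon, from 6 to 1 for the acute phase and from 6 to 0 for the stress list. Among the genes of the naming rule 6 turned, with adjusted p-values from 0.8563 to 1, namely Plk1 at 2.12, Tnfrsf12a at 1.79, Knl1 at 1.41, Rbl1 at 0.86, Sgo2a at 0.80 and Kif4 at 0.75. Plk1 had no count in the sham library that links the times, so that its value depends on the prior count and is no bound. The cause of the turns was not tested.

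Leaving out each library in turn gave 724 to 810 genes after PH, 582 to 898 in YF, 844 to 1047 in YM, 152 to 375 for time by sex, 25 to 72 after sham surgery and 376 to 498 for PH minus sham. Over these fits, 59 to 66 mitotic and 26 to 34 replication genes were called lower, and 9 to 12 interferon, 5 to 7 acute phase and 3 to 8 stress genes higher. Of 66 named genes that were called, 56 stayed called in each of these fits. With the replicate block, 713 genes were called after PH, 38 after sham surgery and 404 for PH minus sham. Pairing by replicate number was not evident over 7302 genes. The correlation of deviations was between −0.109 and 0.153 in 6 pairs, and 1 pair was over 0.1. In 3 of the 6, the 52 h library correlated best with the 96 h library of its own number. No gene exceeded the limit of the UMI correction (34069.6), so that the alternative without such genes changed nothing. Depth limits genes at a few CPM, where 1 count in a library decides a level, and several mitotic genes were at 0 in sham libraries.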

Other observations

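Genes outside the lists that moved between 52 h and 96 h after PH included several that were chosen here after their values were seen, with the mean CPM of the 6 libraries at each time. Hamp2, a copy of the iron hormone hepcidin that could share its reads, rose from 97.1 to 291.8 CPM (log2 1.83, adjusted p = 0.000137, edgeR). Lpl, the lipoprotein lipase, rose from 59.0 to 149.9 CPM, and Apol9b, an apolipoprotein L, from 151.3 to 377.3 CPM. Ly6d, a surface protein of lymphoid progenitors and some epithelia, rose from 11.2 to 74.9 CPM, with log2 fold changes of 3.32 in YF and 1.13 in YM. Msr1, a macrophage scavenger receptor, rose from 11.8 to 27.7 CPM. Serpina12, a serine protease inhibitor, rose from 9.23 to 92.3 CPM, and its difference from the sham change was 0.02 (adjusted p = 1).

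Other genes chosen after their values were seen fell or did not pass the test. Suv39h1, a methyltransferase of heterochromatin, fell from 79.0 to 27.8 CPM (log2 −1.54, adjusted p = 2.53e-05, edgeR), Cbx5, which binds the mark that Suv39h1 makes, from 88.0 to 40.5 CPM, and Esco2, which acetylates cohesin in S phase, from 16.6 to 1.57 CPM. Fabp2, a fatty acid-binding protein of the intestine, fell from 76.1 to 35.6 CPM. Dnmt1, the maintenance DNA methyltransferase and a member of the replication list, had 14.97 and 17.95 CPM (adjusted p = 0.63).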
